A study of Mus musculus with 12 samples.

Results

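The CCE line, which consists of embryonic stem cells of the mouse, was compared 6 days and 2 days after lentiviral transduction with the same hairpin against TUNA, a long intergenic noncoding RNA (gene symbol Tunar). Genes entered the comparison when they had at least 10 normalized counts in 3 or more of the 6 libraries, which kept 8033 of the 37477 rows of the table. By their labels the 6 libraries are 3 of day 6 and 3 of day 2, and both sets carry the hairpin in the pLKO.1-puro vector. All cells were held in medium with serum and LIF, and puromycin was added 24 hours after transduction and kept on, so the day 6 cells had been longer under selection as well as longer with the hairpin. No control hairpin library of day 6 was analysed here, and days in culture, days of selection and days of hairpin expression cannot be told apart. The series also holds 3 libraries of the TUNA hairpin at day 4 and 3 of a control hairpin at day 2, whose levels are given below beside some genes.

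Embryonic stem cells are held undifferentiated in culture by LIF and by a network of transcription factors that includes Oct4, Sox2 and Nanog. When that network weakens, or when cells spread and flatten on the dish, genes of other programs can come on, among them actin and contractile genes controlled by serum response factor, keratins of simple epithelium and imprinted genes, which are read from the copy of a given parent. In fast-dividing cells, the genes for nucleolar proteins and ribosomal proteins are also strongly read, and many carry small nucleolar RNAs (snoRNAs) inside their introns.

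The labelled cell type was met in both groups: all 8 stem cell markers were above 0, with summed levels of 1730 to 2200 normalized counts at day 6 and 2570 to 2770 at day 2. Recovered totals were 3682663 to 4645325 reads in day 6 libraries and 3522126 to 4491827 in day 2 libraries, but 3 rows (Rnu3a, Tex14 and LOC100503663) held 60.4% to 69.31% of them at day 6 and 72.68% to 74.48% at day 2. That left 1211832 to 1503182 reads for all other rows at day 6 and 936421 to 1146127 at day 2. Log levels of replicates correlated across genes at r = 0.920 to 0.959 at day 6, with replicates 2 and 3 the least alike, and at 0.954 to 0.963 at day 2. The row of the targeted RNA was listed at 0 in all 12 libraries, so the knockdown could not be checked.

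Of the 8033 rows tested, 169 (2.1%) were higher at day 6 and 221 (2.75%) were lower, 390 in all (4.85%), at an adjusted p under 0.05 in limma with Benjamini-Hochberg adjustment. Of these, 112 rose and 108 fell by at least 2-fold. Groups overlapped in 1 of the 390, so a lack of overlap adds little to a call. Of the higher rows 32 passed the filter only through day 6, and of the lower rows 27 only through day 2. These had to differ, so neither their p-values nor their lack of overlap is support. Acta2, Cnn1, Krt8, Ctgf, Thbs1, Id2, Spry1, Nnat, Zeb2, Timp3, Hspa4l, Clca6, Slc25a24 and Parva below are among those 32, and Vegfa and Fbp2 among those 27; where a library of the group that carries them was left out, they failed the filter and were not tested. Leaving out 1 library lowered the counts, to 47 higher and 112 lower without day 6 replicate 1, 89 and 128 without replicate 2, 76 and 88 without day 2 replicate 1, 91 and 93 without replicate 2 and 77 and 83 without replicate 3, except that without day 6 replicate 3 there were 120 higher and 242 lower. The median log2 change over all rows was -0.02. When libraries were instead scaled by the reads outside the 3 dominant rows, the median moved to 0.17 and the split became 388 higher and 113 lower, that is 77.4% higher in place of 43.3%. Of the 100 called genes that the naming rule picked, 0 changed direction under that scaling, but 15 called lower lost their call: Aldoa, Asns, Bysl, Cldn4, Dnmt3a, Ect2, Kdm3a, Mtf2, Nodal, Rpa1, Rps24, Sox2, Suz12, Tet2 and Zfp57.

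**Figure D1:**
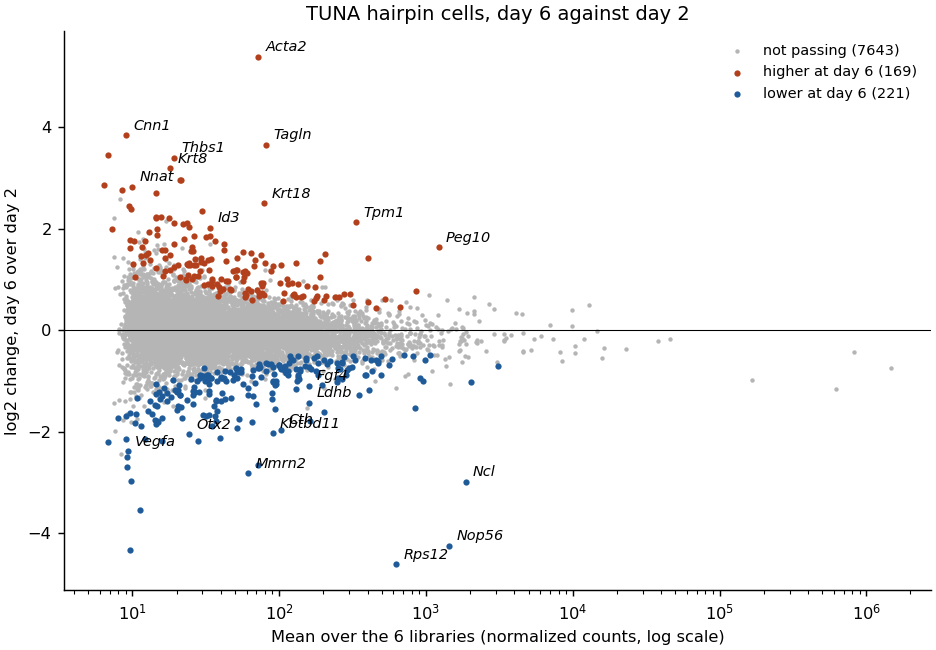
Each point is 1 of the 8033 rows tested, with its mean over the 6 libraries in normalized counts on a log axis and its log2 change, day 6 over day 2; red points were called higher (169), blue points lower (221) and grey points neither. Acta2 and Tagln stand at the top and Rps12, Nop56 and Ncl at the bottom among rows of middle and high level.

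The largest rises were in genes of the contractile actin apparatus. Acta2, the smooth muscle form of actin, had 151, 171 and 98.5 normalized counts in the day 6 libraries, against 2.24, 9.92 and 0 in the day 2 libraries. Every day 6 library was thus far above every day 2 library, where the gene was at or near the floor. That the groups did not overlap was fixed by the filter for this gene. Its log2 change was 5.39 ± 0.68 (SE; adjusted p = 0.00016), and it averaged 0.368 in control cells at day 2 and 5.48 in TUNA hairpin cells at day 4. Tagln, which encodes transgelin, an actin-binding protein of smooth muscle, had 146, 158 and 144 at day 6 against 5.54, 21.2 and 10.7 at day 2, a log2 change of 3.65 ± 0.37 (adjusted p = 1.9e-05). The day 6 libraries were tightly grouped and the day 2 libraries were spread at a low level, without overlap. Tpm1, a tropomyosin that lies along the actin filament, was already well expressed at day 2 and rose further, with 473, 490 and 673 at day 6 against 111, 111 and 149 at day 2 (log2 change 2.13 ± 0.27; adjusted p = 0.000159).

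Of the 37 genes on a list of contractile genes and targets of serum response factor, 27 could be tested, and 11 of them were higher at day 6 (Acta2 and Cnn1 only through the filter's day 6 side) and 0 lower, with 2.1% and 2.75% of all rows tested as the background. The median change over the 27 was 0.60 on the log2 scale, against -0.02 over all rows. Of the 27, 23 were positive, against 48.3% of all rows tested. The list also holds the calponins, which bind actin in muscle and other cells. Cnn1 had 16.5, 22.6 and 14.2 normalized counts at day 6 against 1.11, 0 and 0 at day 2 (log2 change 3.85 ± 0.76; adjusted p = 0.00763). Cnn2 had 77.1, 83.2 and 93.2 at day 6 against 26.7, 25.0 and 33.8 at day 2 (log2 change 1.54 ± 0.26; adjusted p = 0.00235). Csrp1, a LIM protein that binds actin bundles, had 51.6, 62.8 and 35.4 at day 6 against 10.1, 4.54 and 14.2 at day 2 (2.34 ± 0.39; adjusted p = 0.00202). The groups did not overlap in Cnn2 and Csrp1, nor in Cnn1, where the filter fixed this.

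The remaining called members of the list had smaller changes. Tpm4, another tropomyosin, had 131, 188 and 119 at day 6 against 58.2, 52.2 and 65.5 at day 2, and Lpp, a LIM protein of focal adhesions, had 252, 211 and 365 against 88.1, 143 and 86.4. The filamin Flnc and the actinin Actn1, which both crosslink actin, had log2 changes of 1.42 and 1.05. Of the list, 16 tested members did not pass. Among them were the cytoplasmic actins themselves: Actb had 2296, 2532 and 1574 at day 6 and 1750, 1615 and 1595 at day 2 (log2 change 0.34, adjusted p = 0.302), and Actg1 changed by 0.37 (adjusted p = 0.52). Myl9, a regulatory myosin light chain, had 32.6, 43.5 and 23.6 at day 6 and 6.72, 7.95 and 17.1 at day 2, a log2 change of 1.63 that did not pass (adjusted p = 0.116). Without any 1 library, 6 or 7 members stayed called. Acta2 and Cnn1 were not tested without a day 6 library, Actn1 and Flnc lost their calls in all 6 such repeats (adjusted p up to 0.17 and 0.132), Lpp without day 2 replicate 1 or 3 (up to 0.0559) and Tpm4 without day 2 replicate 2 (0.0505).

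**Figure D2:**
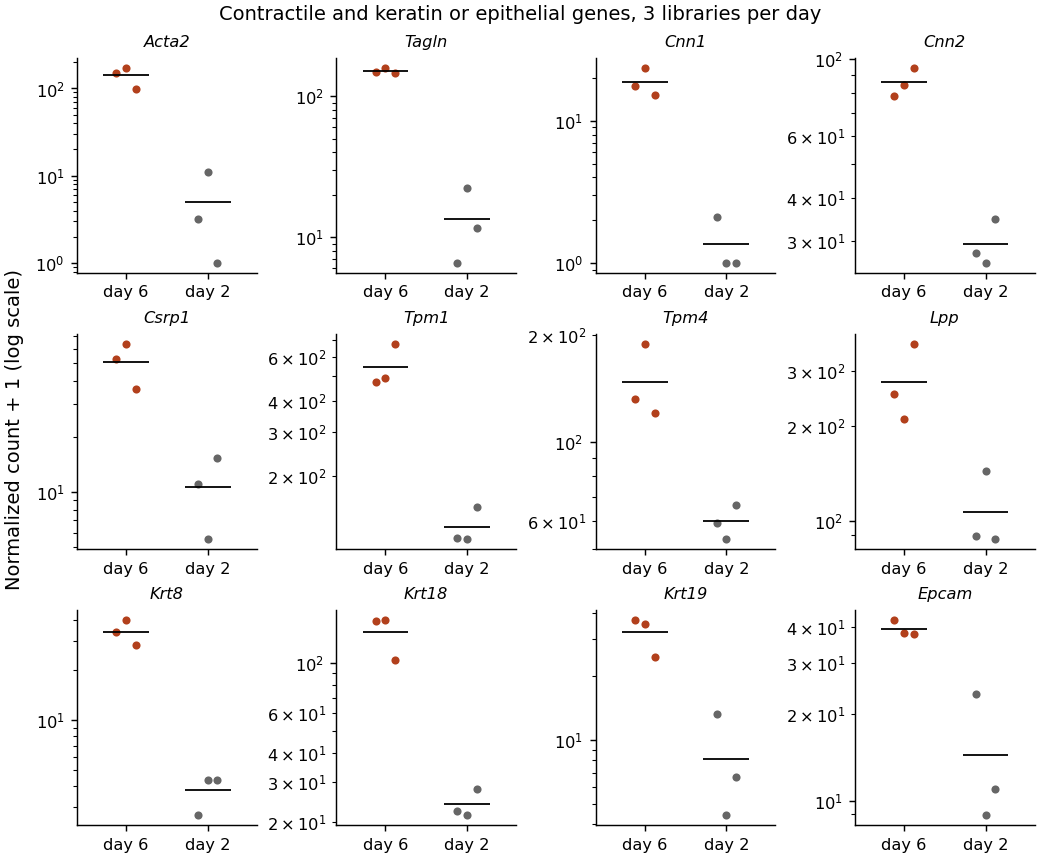
Normalized count plus 1, on a log axis of its own range for each gene, in the 3 day 6 libraries (red, left) and the 3 day 2 libraries (grey, right) of 8 contractile and 4 keratin or epithelial genes; bars are means. In all 12 genes each day 6 library lies above each day 2 library. All 12 were picked as called, and groups overlapped in 1 of the 390 called rows. The filter fixed the lack of overlap for Acta2, Cnn1 and Krt8.

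Serum response factor binds a motif called the CArG box, and the list was looked up in the RefSeq promoter windows of GRCm38.p6, which run from 250 bases before to 50 bases after each start. With both strands searched for the exact letters CCWWWWWWGG, where W is A or T, the motif was in 1.63% of 32851 promoters and in 1.81% of genes. Sites that depart from these letters or lie outside the windows were not counted, so a window without the motif does not show that a gene lacks one. Of the 11 called list members 9 had a promoter in that table, and Tagln had none. Among contractile list genes with a promoter in that table, 5 of 24 tested genes held it (Actg1, Cnn2, Lima1, Myl9 and Vcl), that is 1 of the 9 called and 4 of the 15 not called. That gene is Cnn2, shown because it is the called member whose window holds the motif, at chr10:79988350-79988649 on the + strand; capitals mark the CArG box, whose first base is at -56 from the start.
Cnn2 promoter: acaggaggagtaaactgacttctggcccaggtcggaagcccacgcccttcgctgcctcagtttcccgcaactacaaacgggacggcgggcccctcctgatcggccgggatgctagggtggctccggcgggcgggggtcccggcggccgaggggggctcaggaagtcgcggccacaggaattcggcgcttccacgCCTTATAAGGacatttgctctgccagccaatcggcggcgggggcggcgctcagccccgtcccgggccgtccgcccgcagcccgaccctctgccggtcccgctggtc

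Keratins of simple epithelium rose with the contractile genes. Krt18 had 151, 153 and 102 normalized counts at day 6 against 21.3, 20.4 and 27.0 at day 2, a log2 change of 2.50 ± 0.28 (adjusted p = 5.55e-05). Its filament partner Krt8 had 32.9, 39.3 and 27.5 at day 6 against 1.68, 3.37 and 3.39 at day 2 (3.19 ± 0.42; adjusted p = 0.00025). For both partners day 6 replicate 3 was the lowest of its group and still above all day 2 libraries, which the filter fixed for Krt8. Perp, a component of desmosomes, had 107, 124 and 116 at day 6 against 51.5, 44.3 and 41.3 at day 2 (1.32 ± 0.22; adjusted p = 0.00231).

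Over the keratin and epithelial list, 15 of 23 genes were tested, with a median of 0.48. Of these 5 were higher (Krt8 only through the filter's day 6 side) and 1 lower, beside 2.1% and 2.75% of all rows tested. Epcam, an epithelial adhesion protein that stem cells also make, had 41.1, 37.1 and 36.6 at day 6 against 22.4, 7.95 and 9.97 at day 2, and lost its call without day 2 replicate 2 (adjusted p = 0.0523). Krt19 had 35.9, 34.3 and 23.6 at day 6 against 12.3, 3.41 and 5.69 at day 2, and Cldn4, a tight junction claudin, was lower, with 13.5, 1.56 and 6.64 at day 6 against 29.1, 22.7 and 15.7 at day 2; each lost its call in 5 of 6 repeats without 1 library (adjusted p up to 0.176 and 0.172). E-cadherin (Cdh1), the adhesion protein that holds stem cell colonies together, had 118, 96.4 and 76.6 at day 6 and 109, 115 and 112 at day 2 and did not pass (log2 change -0.23; adjusted p = 0.486).

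Markers of other cell types, among them feeder fibroblasts, which also express contractile genes, were read in the same libraries. Of 8 fibroblast or feeder markers, 6 were listed at 0 in all 6 libraries (Col1a1, Col1a2, Col3a1, Dcn, Lum and Postn), and the summed level of the 8 was 1.68 to 5.09 at day 6 and 5.68 to 8.55 at day 2. Endoderm markers summed to 1.5 to 6.21 at day 6 and 2.27 to 7.84 at day 2, with Sox17, Afp, Ttr and Apoa1 at 0. Trophectoderm markers summed to 3.9 to 6.64 at day 6 and 1.42 to 4.54 at day 2, and the day 6 sum came from Cdx2 alone, at 5.25, 3.90 and 6.64 in the day 6 libraries and 0 in every other library, while Elf5, Gata3 and Krt7 were at 0 at day 6. Neural markers summed to 14.3 to 20.9 at day 6 and 11.4 to 15.7 at day 2. Mesoderm markers reached at most 1.9 at day 6 and 2.51 at day 2, with Mixl1 and Mesp1 at 0. Blood and endothelial markers summed to 6.75 to 13.1 at day 6 and 12 to 16.9 at day 2, with Ptprc, Hba-a1 and Cdh5 at 0. At levels this low the days are not fully comparable, since 1 whole read was listed at 0 at day 6 but not at day 2. In bulk RNA, more cells of a type and more RNA per cell cannot be told apart. The part of the markers above 0 in the results was not tested.

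Few genes of the longer lists for other cell types were high enough to test. Of 17 neural genes 2 were tested, and Vim, the intermediate filament protein vimentin, was higher, with 145, 149 and 108 at day 6 against 82.5, 50.9 and 76.9 at day 2 (log2 change 0.94; adjusted p = 0.0107). Of 19 primitive streak and mesoderm genes 2 were tested, and Zeb2, a repressor of E-cadherin, was called at a low level (13.7, 16.1 and 18 at day 6 against 3.33, 5.68 and 0 at day 2). Of 22 fibroblast and feeder genes 3 were tested, and Timp3, a metalloproteinase inhibitor, was called at 11.3, 28.1 and 24.7 at day 6 against 4.48, 6.81 and 2.85 at day 2. Vim lost its call without day 2 replicate 2 or day 6 replicate 1 (adjusted p up to 0.0607), Zeb2 without day 2 replicate 1 or 3 (0.158) and Timp3 without any 1 day 2 library (0.172). Zeb2 and Timp3 had passed the filter only through day 6. None of 3 tested endoderm genes of 19 passed, and none of 13 trophectoderm genes was high enough to test.

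YAP and TAZ are coactivators that enter the nucleus in spread cells and act through TEAD factors. On a list of 25 of their targets and partners, 16 were tested, with a median of 0.47. Of these 4 were higher and 1 lower, beside 2.1% and 2.75% of all rows tested. Ctgf, a secreted matrix protein and classical YAP target, had 26.1, 23.3 and 24.3 normalized counts at day 6 against 4.48, 4.54 and 4.27 at day 2, a log2 change of 2.23 ± 0.40 (adjusted p = 0.00357). Thbs1, the matrix protein thrombospondin, had 36.8, 30.5 and 36.8 at day 6 against 3.36, 7.79 and 0 at day 2. Both passed the filter only through day 6, which fixed that their groups did not overlap. Fstl1, a secreted glycoprotein, had 277, 234 and 264 at day 6 against 130, 130 and 110 at day 2 (1.06 ± 0.14; adjusted p = 0.000284).

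The factor Tead1 itself had 142, 112 and 322 at day 6 against 62.6, 64.7 and 78.6 at day 2, with day 6 replicate 3 well above the other two. Myof, the membrane repair protein myoferlin, moved the other way, with 19.5, 30.5 and 21.6 at day 6 against 53, 70.9 and 60.3 at day 2 (-1.34 ± 0.23; adjusted p = 0.00249). Cyr61, a close relative of Ctgf, had 28.8, 15.5 and 20.1 at day 6 and 8.96, 10.2 and 2.85 at day 2 and did not pass (log2 change 1.53; adjusted p = 0.188). Thbs1 lost its call without day 2 replicate 3 (adjusted p = 0.0812) and Tead1 without day 2 replicate 1 or 2 (up to 0.0623), and leaving out any 1 day 6 library left 2 members called higher, with Ctgf and Thbs1 untested there.

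Id2 and Id3 are inhibitors of bHLH transcription factors and direct targets of BMP signalling. On the TGF-beta, Nodal and BMP list Id3 was the clearest change. Id3 had 60.7, 52.9 and 51.8 at day 6 against 12.9, 13.6 and 12 at day 2 (log2 change 2.02 ± 0.25; adjusted p = 0.000158). Id2 had 17.2, 18.7 and 15.2 against 2.24, 2.27 and 2.85 (2.38 ± 0.40, adjusted p = 0.00231), but the filter fixed that its groups did not overlap. Both were narrow within each group, and both were already high at day 4, with means of 46.7 for Id3 and 20.6 for Id2. Of 28 list members 18 were tested, with a median of 0.23. Of these 4 were higher (Id2 only through the filter's day 6 side) and 1 lower, beside 2.1% and 2.75% of all rows tested. Id1, of the same family, was among the 13 that did not pass, as were Smad7, Bambi and Bmp4. The other members called were Tgfbr1, a TGF-beta receptor (log2 change 0.73), Skil, a Smad corepressor (0.51), and the ligand Nodal, which was lower (-0.81), and each of these lost its call in 5 of 6 repeats without 1 library (adjusted p up to 0.0985, 0.129 and 0.11).

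In the FGF and ERK list, 15 of 22 genes were tested, 2 were higher and 1 lower, beside 2.1% and 2.75% of all rows tested. Spry4, a feedback inhibitor of receptor tyrosine kinase signalling, had 107, 108 and 174 at day 6 against 45.2, 56.2 and 55.9 at day 2 (log2 change 1.26 ± 0.23; adjusted p = 0.00353), and its relative Spry1 rose by 1.32 and lost its call without any 1 day 2 library (adjusted p up to 0.137). Fgf4, the growth factor that stem cells themselves secrete, had 109, 95.9 and 101 at day 6 against 225, 212 and 219 at day 2 (-1.09 ± 0.14; adjusted p = 0.000258). The ligand was thus lower while Spry4 was higher, and Spry1 had passed the filter only through day 6. Of the 15 tested, 12 did not pass, Spry2, Spred1 and Dusp6 among them, and the list median was 0.15. Klf6, an early response transcription factor, was the 1 gene called among 8 tested of 19 immediate early genes, with 71.3, 95.8 and 76.7 at day 6 against 40.3, 35.1 and 31.3 at day 2 (1.16 ± 0.23; adjusted p = 0.00703). None of 9 tested WNT genes of 25 passed in limma, and 1 had an unadjusted p under 0.05.

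Several imprinted genes were higher at day 6. Peg10, a gene of retrotransposon origin expressed from the paternal copy, was the most abundant of them that changed, with 1835, 1512 and 2228 normalized counts at day 6 against 574, 606 and 587 at day 2 (log2 change 1.64 ± 0.18; adjusted p = 3.76e-05). Its levels at day 4 (mean 702) and in control cells at day 2 (663) were near those at day 2. On the imprinted list, 15 of 29 genes were tested, with a median of 0.75 and a lowest change of 0.00. Of these 6 were higher (Nnat only through the filter's day 6 side) and 0 lower, beside 2.1% and 2.75% of all rows tested.

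The other imprinted genes called were Nnat, a neuronal membrane proteolipid gene, Peg3, a zinc finger gene, Plagl1, a zinc finger factor of an imprinted gene network, Grb10, an adaptor that damps insulin receptor signalling, and Gnas, which encodes the stimulatory G protein alpha subunit. Nnat had 20.1, 20.3 and 12.8 at day 6 against 0, 2.27 and 4.27 at day 2. Peg3 had 45.6, 50.4 and 46.6 at day 6 against 14.6, 20.4 and 18.5 at day 2, and Grb10 had 85.8, 51.1 and 77.7 against 24.6, 32.9 and 34.2. These groups did not overlap, which the filter fixed for Nnat, and the log2 changes of the 5 ran from 1.05 for Gnas to 2.83 for Nnat. Igf2, the fetal growth factor, had 21.0, 17.1 and 18 at day 6 and 3.36, 6.81 and 4.27 at day 2 and missed the threshold (log2 change 1.80; adjusted p = 0.0912), as did the antisense RNA Kcnq1ot1 with 847, 774 and 992 at day 6 and 581, 619 and 560 at day 2 (0.56; adjusted p = 0.0513).

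Except for Peg10, the imprinted calls depended on single libraries: without day 6 replicate 1, Peg10 alone stayed called (Nnat was untested without a day 6 library), and without day 2 replicate 1, 2 members did. Without day 6 replicate 2 there were 3, and without day 6 replicate 3 there were 4. The adjusted p of these genes in repeats without 1 library reached 0.0536 for Gnas, 0.0552 for Nnat, 0.0789 for Peg3, 0.093 for Grb10 and 0.129 for Plagl1.

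**Figure D3:**
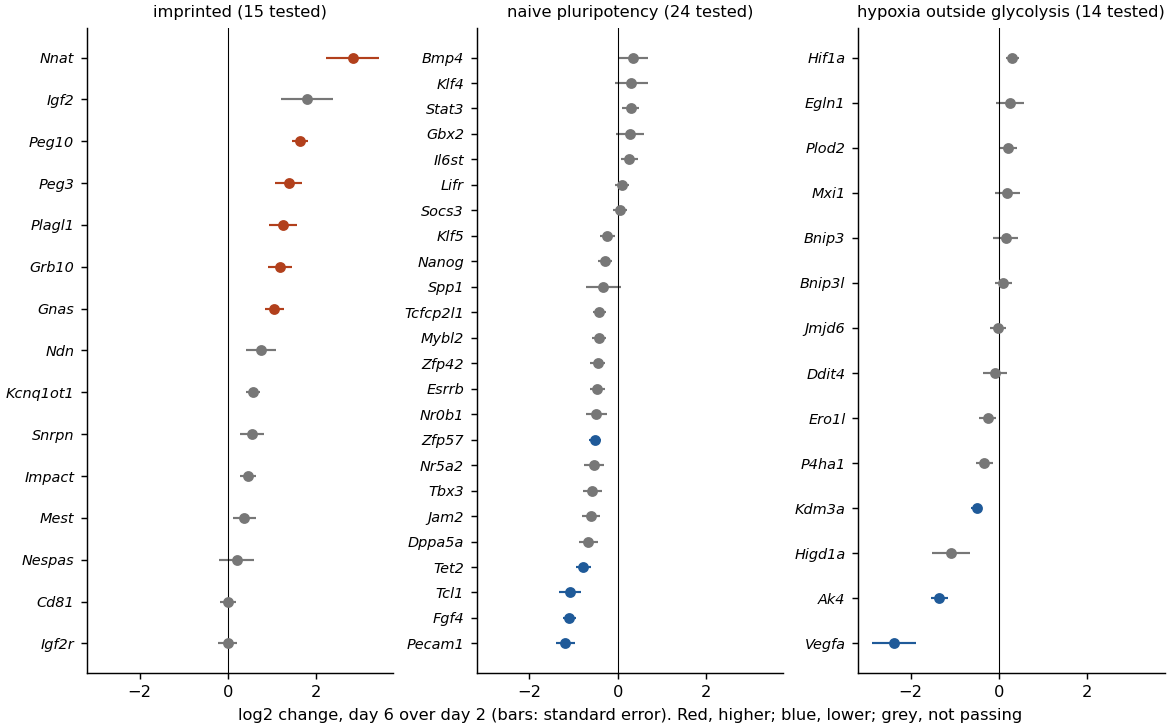
log2 change, day 6 over day 2, of each tested member of the imprinted list (15), the naive pluripotency list (24) and the hypoxia list (14), with bars for the standard error; red members were called higher, blue lower, and grey did not pass. All 15 imprinted members lie at or right of 0, and 17 of 24 naive pluripotency members lie left of it. Over all rows tested, 48.3% of changes were positive.

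At the core of the pluripotency network 1 factor was called lower, and further out in the network 5 genes were. Pou5f1, which encodes Oct4, had 620, 680 and 518 normalized counts at day 6 and 644, 698 and 673 at day 2, with overlap between the groups (log2 change -0.16 ± 0.14; adjusted p = 0.582). Nanog had 279, 271 and 198 at day 6 and 287, 295 and 327 at day 2 (-0.29 ± 0.16; adjusted p = 0.346). Neither passed, which does not show that they were equal. Sox2 was the 1 member called of 14 tested on the core list, lower at day 6, with 391, 359 and 375 against 533, 570 and 609 at day 2 (-0.60 ± 0.13; adjusted p = 0.0109); the call was lost without day 2 replicate 3 (adjusted p = 0.0651).

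On the naive pluripotency list 24 of 27 genes were tested, 5 were lower and 0 higher, beside 2.75% and 2.1% of all rows tested. The list median was -0.44 and 17 changes were negative, while 48.3% of all rows tested were positive. Pecam1, an adhesion protein of naive cells, had 23.3, 14.0 and 23.7 at day 6 against 41.4, 45.4 and 52.7 at day 2 (log2 change -1.18 ± 0.21; adjusted p = 0.00353), and Fgf4 is given above. The others were Tcl1, an activator of Akt (-1.08), Tet2, which oxidises methylated cytosine (-0.78), and Zfp57, a zinc finger protein that keeps methylation at imprinted regions (-0.52). Zfp57 had 224, 194 and 262 at day 6 against 318, 341 and 313 at day 2 and was at 180 at day 4. Fgf4 and Pecam1 were lower in every repeat without 1 library, whereas Tcl1 lost its call in 4 (adjusted p up to 0.0982), Tet2 in 2 (0.0623) and Zfp57 in 5 (0.154). The count was 2 without day 2 replicate 1 or 2, 3 without day 2 replicate 3 or day 6 replicate 1, and 8 without day 6 replicate 3, and 3 under the alternative scaling, where the median was -0.25.

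Genes of the primed epiblast, the next stage of the embryo, were lower too where they passed. Of 15 on that list 5 were tested, 3 were lower and 0 higher, beside 2.75% and 2.1% of all rows tested. Otx2, a homeodomain factor that drives the passage to the primed state, had 6.24, 9.66 and 11.2 at day 6 against 35.7, 36.8 and 46.9 at day 2 (log2 change -2.05 ± 0.31; adjusted p = 0.00102), with a day 4 mean of 17.7. Nodal and Dnmt3a, a de novo DNA methyltransferase, fell by 0.81 and 0.66 on the log2 scale, and each lost its call in 5 of 6 repeats without 1 library (adjusted p up to 0.11 and 0.172).

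Among rows of high level the largest falls were in 3 genes that carry snoRNAs in their introns. Nop56, whose product is part of every box C/D snoRNA particle, had 124, 124 and 162 normalized counts at day 6 against 1568, 3551 and 3073 at day 2, a log2 change of -4.24 ± 0.25 (adjusted p = 2.9e-08). Ncl, which encodes nucleolin, an abundant protein of the nucleolus, had 384, 362 and 515 at day 6 against 3866, 3155 and 2921 at day 2 (-2.98 ± 0.18; adjusted p = 2.9e-08). Rps12, a protein of the small ribosomal subunit, had 51.1, 47.7 and 45.1 at day 6 against 1457, 1178 and 988 at day 2 (-4.61 ± 0.61; adjusted p = 0.000261). The groups were far apart in all 3 genes.

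The falls of Nop56 and Ncl started from day 2 levels that stood above the other groups. Nop56 averaged 169 in control cells at day 2, 2731 in TUNA hairpin cells at day 2, 130 at day 4 and 137 at day 6, and Ncl averaged 487, 3314, 291 and 420 in the same order. Thus for Nop56 and Ncl the day 2 hairpin libraries were the high ones and the day 6 level lay close to the control's. Rps12 averaged 615 in control cells, 1208 at day 2, 53.2 at day 4 and 48.0 at day 6. Its 3 control libraries were widely spread, at 74.1, 508 and 1263, and overlapped the day 2 hairpin libraries. Snhg1, a noncoding host of 8 annotated snoRNAs, followed with 19.6, 27.7 and 16.3 at day 6 against 72.2, 87.6 and 84.3 at day 2 (log2 change -1.92; adjusted p = 0.0113), but lost its call without day 2 replicate 2 or 3 or day 6 replicate 1 (up to 0.0539). Its control libraries were spread too, at 16.2, 36.7 and 88.6.

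**Figure D4:**
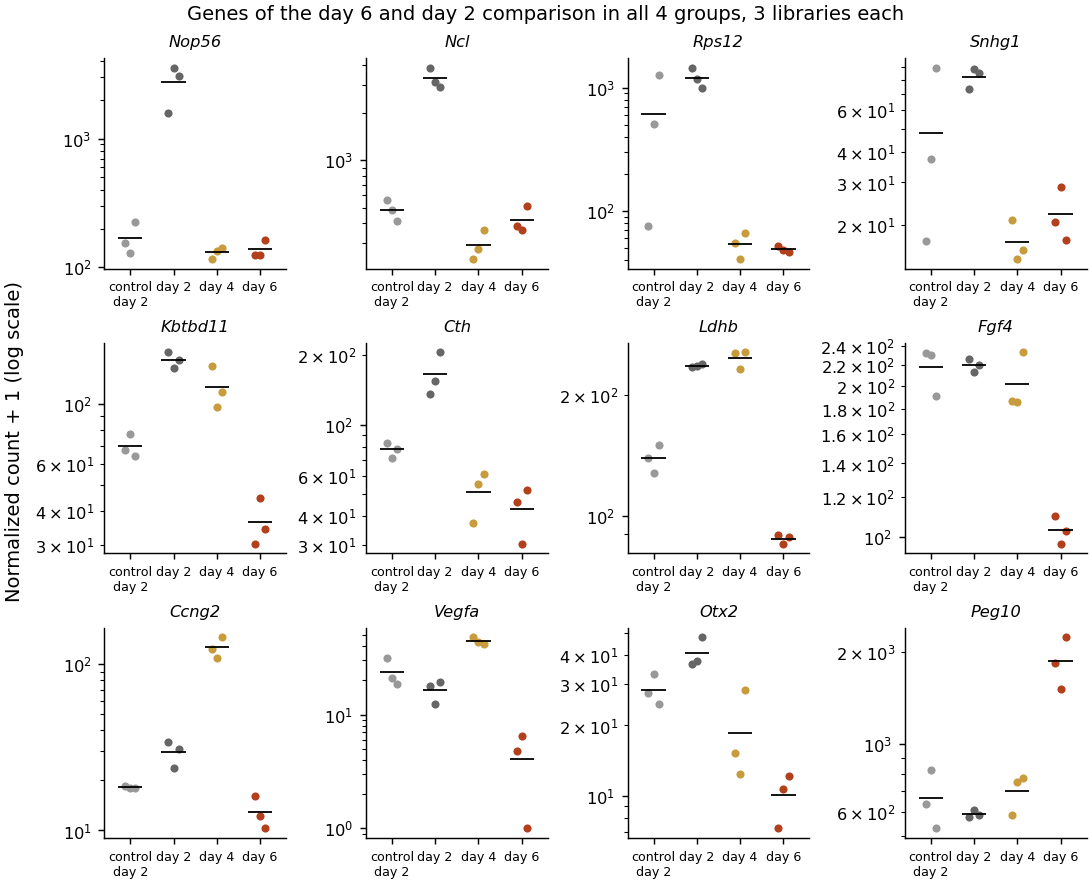
Normalized count plus 1, on a log axis of its own range for each gene, in the 3 libraries of control cells at day 2 and of TUNA hairpin cells at day 2, day 4 and day 6 for 12 genes; bars are means. Nop56 and Ncl are high in the day 2 hairpin libraries alone, Ldhb and Fgf4 are lowest at day 6, and Ccng2 and Vegfa are highest at day 4.

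In the GENCODE M21 annotation of GRCm38, Nop56 contains 5 annotated snoRNAs, Ncl 3 and Rps12 3. To show what lies inside these genes, 4 of the named box C/D members are printed from that annotation's transcripts, with capitals for a C box (TGATGA within the first 20 bases) and a D box (CTGA within the last 12); 19.9% of the 1483 annotated snoRNA transcripts hold both in these places, read on the transcript strand. Snord110 and Snord57 lie in Nop56 (chr2:130275506-130275573 and chr2:130278016-130278087, + strand), Snord82 in Ncl (chr1:86356261-86356330, - strand) and Snord100 in Rps12 (chr10:23785750-23785823, - strand). Snord57 lacks the exact C box letters and is printed without capitals.
Snord110: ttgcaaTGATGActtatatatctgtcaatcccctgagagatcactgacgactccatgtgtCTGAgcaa
Snord57: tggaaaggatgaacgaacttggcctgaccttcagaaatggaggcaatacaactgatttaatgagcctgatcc
Snord82: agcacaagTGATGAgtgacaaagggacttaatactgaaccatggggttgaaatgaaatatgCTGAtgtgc
Snord100: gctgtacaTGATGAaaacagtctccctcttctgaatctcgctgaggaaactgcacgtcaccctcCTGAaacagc

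Some snoRNAs have rows of their own in the table. Of 114 such rows, 44 were tested in limma, and 2 were higher (Snord8 and Snora15) and 0 lower, with a median of -0.13; at an unadjusted p under 0.05 there were 4 and 3. Snora75, a snoRNA of the other main class that lies inside Ncl, had 24546, 23167 and 13067 at day 6 and 32661, 23809 and 20926 at day 2, with overlap and a log2 change of -0.38 (adjusted p = 0.53). Whether reads of a snoRNA were also counted for its host could not be determined from the table.

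Most rows that contain a snoRNA were not called, as was true of all rows tested, of which 4.85% were called. Of tested rows that the annotation covers, 214 of 7734 (2.77%) contain an annotated snoRNA. Among the rows called lower 12 of 214 contain one (5.61%), and among those called higher 4 of 163 (2.45%). On a list of 33 box C/D proteins and snoRNA hosts, 29 were tested, 5 were lower and 2 higher, with a median of -0.21. Nop58, the partner of Nop56 in the same particles, had 188, 222 and 208 at day 6 and 205, 232 and 224 at day 2 and did not pass (-0.10; adjusted p = 0.779).

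Most ribosomal protein genes did not pass, as was true of all rows tested, of which 4.85% were called. Of 76 cytosolic ones 70 were tested, 4 were lower and 1 higher, with a median of -0.11 that became 0.07 under the alternative scaling. Besides Rps12, the lower ones were Rpl13a (log2 change -1.37), Rpl9 (-1.30) and Rps24 (-0.75), and the higher one was Rpl30, with 1020.4, 1209.9 and 1018 at day 6 against 719, 551 and 631 at day 2. Rps12 apart, these calls were lost in some repeats without 1 library: Rpl9 and Rpl30 without day 2 replicate 2 (adjusted p = 0.0606 and 0.0602), Rpl13a in 3 (up to 0.0859) and Rps24 in 5 (up to 0.138). Processed pseudogenes resemble ribosomal protein genes closely, so reads may have been shared between copies. Of 39 tested ribosome biogenesis genes of 41, only Bysl was called, lower by 0.88 on the log2 scale, and it lost that call in 5 of 6 repeats (adjusted p up to 0.152).

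Genes of sugar use and of the response to low oxygen were lower at day 6 in a few members. Ldhb, a lactate dehydrogenase subunit, had 88.5, 84.3 and 87.7 normalized counts at day 6 against 233, 235 and 237 at day 2 (log2 change -1.43 ± 0.13; adjusted p = 5.74e-06). The spread within each group was narrow, and the day 4 mean of 246 was still at the day 2 level. Hk2, a hexokinase, which phosphorylates glucose, had 712, 513 and 661 at day 6 against 1196, 1168 and 1197 at day 2 (-0.93 ± 0.14, adjusted p = 0.000813). Of 23 glycolysis genes 17 were tested, with a median of -0.30 (-0.11 under the alternative scaling). Of these 3 were lower and 0 higher, beside 2.75% and 2.1% of all rows tested. The remaining gene was Aldoa, an aldolase, lower by 0.72 on the log2 scale, whose call was lost in 5 of 6 repeats without 1 library (adjusted p up to 0.115). Ldha, the partner subunit of Ldhb, had 683, 728 and 663 at day 6 and 704, 638 and 677 at day 2 (log2 change 0.04; adjusted p = 0.914).

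Vegfa, the endothelial growth factor gene switched on by low oxygen, had 3.75, 5.46 and 0 at day 6 against 16.8, 11.4 and 18.5 at day 2 (log2 change -2.38 ± 0.50), and it passed the filter only through day 2; its call was lost with only the 6 libraries in the fit. Ak4, a mitochondrial adenylate kinase, had 45.3, 46.0 and 58.8 at day 6 against 110, 129 and 150 at day 2 (-1.35 ± 0.19; adjusted p = 0.000427). Vegfa was highest at day 4, with a mean of 43.3, so its day 6 level followed a higher one. Of 23 hypoxia genes outside glycolysis 14 were tested, with a median of -0.06 that became 0.12 under the alternative scaling. Of these 3 were lower (Vegfa only through the filter's day 2 side) and 0 higher, beside 2.75% and 2.1% of all rows tested. The other gene called was Kdm3a, a histone demethylase, lower by 0.50 on the log2 scale and without its call in 5 of 6 repeats (adjusted p up to 0.106). In place of these 3, the genes called lower numbered 1 without any 1 day 2 library, where Vegfa was untested, and 2 without day 6 replicate 1 or 2. The letters ACGTG, the core of the hypoxia response element, stood on either strand in 19.6% of the RefSeq promoters and for 21.8% of genes, and in those of 10 of 11 tested list genes found there, which are 2 of the 3 called (Ak4 and Vegfa) and 8 of the 8 not called.

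Cth, the enzyme that makes cysteine from cystathionine and a target of the stress factor ATF4, had 45.4, 29.5 and 51.2 at day 6 against 135, 153 and 205 at day 2 (log2 change -1.96 ± 0.23; adjusted p = 0.000114). Its mean in control cells was 77.0, between these levels, and its day 4 mean of 50.2 was already low. On the ATF4 and amino acid list 17 of 28 genes were tested, with a median of -0.13 that became 0.05 under the alternative scaling. Of these 2 were lower and 0 higher, beside 2.75% and 2.1% of all rows tested. The other was Asns, asparagine synthetase, with 116, 122 and 102 at day 6 against 194, 170 and 193 at day 2, which lost its call without day 2 replicate 1 or 3 or day 6 replicate 1 (adjusted p up to 0.0766).

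Some chromatin genes were lower, where 2.75% of all rows tested were lower and 4.85% were called. Aebp2, an accessory subunit of Polycomb repressive complex 2, had 80.4, 83.2 and 101 at day 6 against 180, 185 and 166 at day 2 (log2 change -1.0 ± 0.14; adjusted p = 0.000427). The accessory subunit Mtf2 and the core subunit Suz12 had changes of -0.99 and -0.62, and they lost their calls in 5 and 4 of 6 repeats without 1 library (adjusted p up to 0.111 and 0.149). Ezh2, the methyltransferase of the complex, had 91.9, 90.1 and 140 at day 6 and 113, 99.5 and 107 at day 2 (-0.02; adjusted p = 0.977). Of 28 Polycomb genes 18 were tested, with 3 lower, 0 higher and a median of 0.08, so the list as a whole did not lean down. Among 13 tested DNA methylation genes 2 were lower (Tet2 and Dnmt3a, given above), and among 14 tested histone demethylases 1 (Kdm3a). Tet2, Dnmt3a and Kdm3a each lost the call in some repeats without 1 library and under the alternative scaling.

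Of the basement membrane and integrin lists, 3 genes were lower, where 2.75% of all rows tested were lower. Sdc4, the heparan sulfate proteoglycan syndecan 4, had 42.0, 42.9 and 26.5 at day 6 against 111, 91.9 and 101 at day 2 (log2 change -1.45 ± 0.19; adjusted p = 0.00025). Nid1, the basement membrane linker nidogen, had 27.5, 22.8 and 28.2 at day 6 against 56.9, 64.6 and 82.5 at day 2 (-1.33 ± 0.18; adjusted p = 0.000427). Of 14 basement membrane genes 12 were tested, and these were the 2 called. Itga6, the laminin-binding integrin subunit of stem cells, had 173, 133 and 215 at day 6 against 276, 353 and 358 at day 2 and was the 1 gene called of 5 tested integrins; it lost its call without day 2 replicate 3 (adjusted p = 0.0523). These falls and the rise of the contractile genes were in the same 3 libraries.

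Cell cycle genes mostly did not pass, as was true of all rows tested, of which 4.85% were called. Ccng2, a cyclin that slows division, had 15.0, 11.1 and 9.29 at day 6 against 32.9, 22.6 and 29.9 at day 2 (log2 change -1.21 ± 0.23; adjusted p = 0.00633), after a day 4 mean of 125. It was the 1 gene called of 12 tested among G1 cyclins and CDK inhibitors. Of 37 S phase genes tested, 1 (Rpa1, single-strand DNA-binding protein) was lower, and of 31 mitosis genes, 1 (Ect2, which starts cytokinesis) was lower; each lost its call in 5 of 6 repeats without 1 library (adjusted p up to 0.121 and 0.173). Among histone genes 34 of 36 changes were positive (median 0.38, and 0.57 under the alternative scaling), against 48.3% of all rows tested. Whether histone genes moved independently of each other was not tested. Only Hist1h1b, a linker histone, was called, and it lost that call in 5 of 6 repeats (adjusted p up to 0.137). Without day 6 replicate 3, 4 histone genes were called. Among 32 tested p53 targets only Perp was called, and Cdkn1a, the p53-driven cell cycle inhibitor, had 13.5, 12.5 and 11.3 at day 6 and 10.1, 13.6 and 7.12 at day 2 (log2 change 0.29; adjusted p = 0.738).

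**Figure D5:**
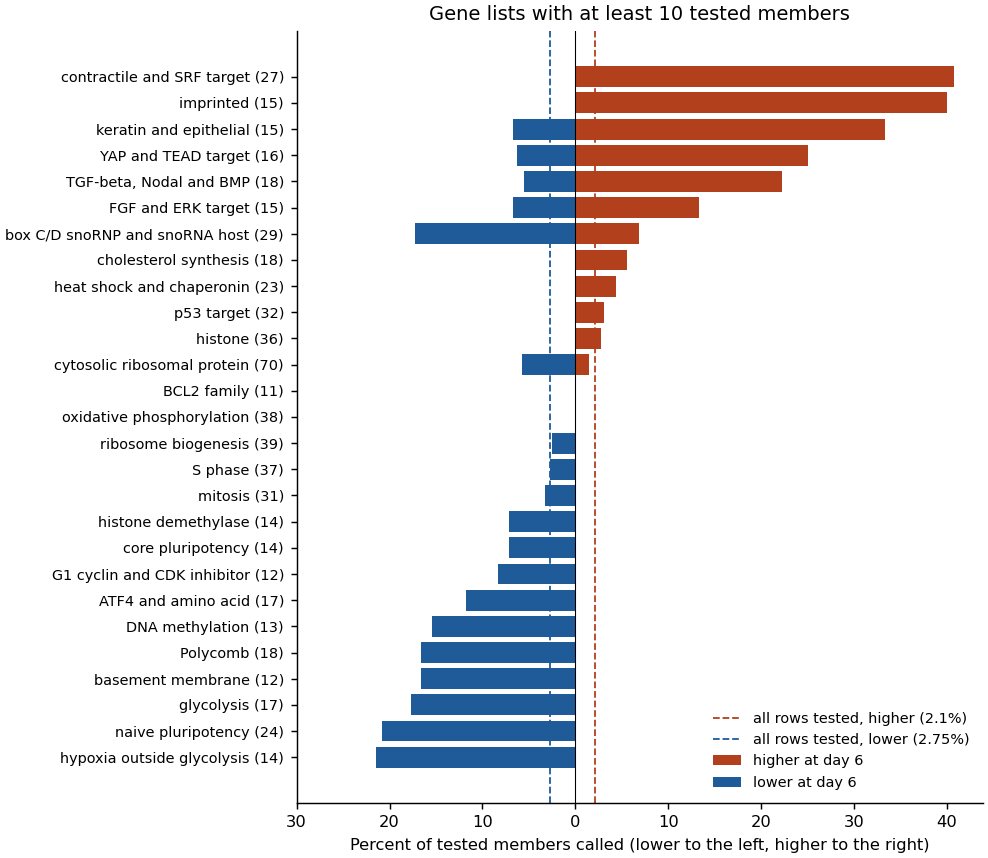
Share of the tested members of each list with at least 10 tested members (number in parentheses) that were called higher (red, to the right) or lower (blue, to the left) at day 6; dashed lines mark the share of all 8033 rows, 2.1% higher and 2.75% lower. Contractile (11 of 27), imprinted (6 of 15) and keratin (5 of 15) lists reach furthest right, and hypoxia (3 of 14) and naive pluripotency (5 of 24) furthest left. These counts include Acta2, Cnn1, Nnat and Krt8, which passed the filter only through day 6, and Vegfa of the hypoxia list, which passed only through day 2. The glycolysis (3 of 17), snoRNA host (5 of 29) and Polycomb (3 of 18) lists follow closely on the left. The hypoxia median was -0.06, and 0.12 under the alternative scaling.

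The remaining lists gave few or no calls, where 4.85% of all rows tested were called. In limma none of 38 tested oxidative phosphorylation genes, 11 BCL2 family genes or 5 interferon response genes passed (3, 3 and 0 at an unadjusted p under 0.05; 2, 2 and 0 with array weights), nor did the 1 tested gene each of the 2-cell-like and the blood and endothelial lists. Among 23 tested heat shock and chaperonin genes Hspa4l, a co-chaperone, was higher (log2 change 1.76), past the filter only through day 6. It lost its call without day 2 replicate 1 or 3 (adjusted p up to 0.0863). Of 11 tested microRNA rows none was called, and 1 had an unadjusted p under 0.05. Mir290, the primary transcript of the stem cell microRNA cluster of that name, had 33.3, 92.5 and 139 at day 6 and 221, 200 and 246 at day 2 (log2 change -1.54; adjusted p = 0.135).

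Outside the lists, the rule took the largest changes that did not overlap between groups. Among rows with a mean of at least 50, the rises included Tmsb4x, which encodes thymosin beta 4, a protein that binds free actin, with 583, 699 and 494 at day 6 against 217, 207 and 229 at day 2 (log2 change 1.43 ± 0.16; adjusted p = 6.03e-05). Ahnak, a giant scaffold protein at the cell cortex, had 298, 209 and 418 at day 6 against 111, 95.3 and 108 at day 2 (1.5 ± 0.22; adjusted p = 0.000632). Clcn5, an endosomal chloride exchanger, rose by 1.49 and Carhsp1, an RNA-binding protein, by 1.43. At lower level, the largest rises included Clca6, a calcium-activated chloride channel regulator, and Slc25a24, a mitochondrial carrier of ATP and phosphate, both by 2.95 and both past the filter only through day 6. Grip1, a scaffold of glutamate receptors, rose by 1.53 and lost its call in 5 of 6 repeats without 1 library (adjusted p up to 0.119).

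Among the falls, Mmrn2, an endothelial matrix protein gene, had 11.3, 15.6 and 17.1 at day 6 against 124, 106 and 95.0 at day 2 (log2 change -2.82 ± 0.21; adjusted p = 5.3e-07), with a day 4 mean of 59.8 between them. Kbtbd11, a BTB and kelch domain protein gene, had 29.3, 43.6 and 33.2 at day 6 against 155, 135 and 145 at day 2 (-2.02 ± 0.18; adjusted p = 5.74e-06). In both, each day 6 library was below each day 2 library by a wide margin. Ly75, an endocytic receptor, fell by 1.78, H2-M5, a class I histocompatibility gene, by 1.74, Acp6, a lysophosphatidic acid phosphatase, by 1.56 and Trrap, the large adaptor of histone acetyltransferase complexes, by 1.53, all on the log2 scale. At lower level the largest falls included Dnajc6, the clathrin uncoating co-chaperone auxilin (-2.17), Fbp2, a muscle fructose bisphosphatase (-2.15), and Exosc8, a subunit of the RNA exosome (-2.11). Fbp2 lost its call without day 6 replicate 2 or 3 (adjusted p up to 0.0903).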

How the data were processed

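RNA was measured in 12 libraries of 4 groups of 3, of which 6 were compared here. The authors deposited 1 table of 37477 gene symbols as log2 normalized counts; per the submitters' processing notes, BWA, DESeq and the build mm9 were used, but neither their versions nor their roles are given there. No deposited log2 value is below 0. A 0 therefore means at most 1 normalized count, is called listed at 0 and was set to 0, so means that hold it are lower bounds. As 1 read was worth 0.75 to 0.95 normalized counts in the day 6 libraries and 1.12 to 1.43 in the day 2 libraries, 1 whole read was listed at 0 at day 6 but not at day 2. The sources used here do not give how reads of overlapping features were shared, and 22600 rows were at 0 in all 6 libraries.

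Values were raised back to normalized counts, and log2(value + 1) was modelled in limma (version 3.58.1, under R 4.3.3). All 12 libraries entered, each of the 4 groups had its own coefficient, and the variance followed an intensity trend (8 residual and 8.98 prior degrees of freedom). Rows needed at least 10 normalized counts in 3 of the 6 libraries. Adjusted p-values are Benjamini-Hochberg values over the 8033 rows, with a threshold of 0.05, and every adjusted p printed comes from limma. Fold changes on this scale understate the change of low genes. Separate cultures for the replicates are not stated in the labels, and p-values therefore reflect the spread between these libraries alone, which may be technical. On simulated data of 8044 genes, the test found 16.4% of the genes changed by 1.5-fold, 70.1% of those changed by 2-fold and 100% of those changed by 4-fold, and 2.36% of 127 calls fell on unchanged genes. Changed genes were drawn only from rows above a minimum mean, and no deviation shared across a whole library was simulated. These rates may thus not hold for low rows or for the libraries compared here.

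Named genes were the 15 largest rises and 15 largest falls among called rows whose groups did not overlap and whose mean reached 50 normalized counts, the 5 largest of each with a mean from 10 to 50, called members of 39 gene lists with up to 4 members of smallest p in each, a few fixed genes and the cell type markers; rows that the reference does not name are counted only, and some genes are not reported here. Other list members printed as not passing were chosen after their values were seen. The members and lists were chosen with earlier results of these data known. Of the table's symbols, 79% matched a symbol or synonym of the mouse reference tables, which served for names, containment of snoRNAs (GENCODE M21) and promoters; their build is not mm9, so no coordinates were carried over. Reads per library were recovered from the worth of 1 read, the smallest step between values. Alternatives were 14 other settings and 6 repeats without 1 library.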

Additional observations from a re-analysis of the deposited data

How the results depend on the processing

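The counts of 169 genes higher and 221 lower at day 6 moved by more than 1.5 times under 3 settings. Scaling by the reads outside the 3 dominant rows gave 388 higher and 113 lower, array weights gave 779 and 917, and a threshold of 0.01 gave 48 and 74; the causes were not tested. Without 1 library the counts ran from 47 to 120 higher and from 83 to 242 lower, with fewer samples and rows in each such fit. The other settings (median of ratios, upper quartile, filters, pseudocounts, 6 libraries only, no trend, and no snoRNA host list) stayed within 1.5 times. Of the 100 named genes called, 41 kept the call in all 6 repeats without 1 library, 10 more kept it in the 3 repeats in which they passed the filter, and 0 changed direction. The labels do not say whether replicate numbers pair the samples. Deviations of libraries with the same number correlated at -0.039 to 0.088, and of other numbers at -0.145 to 0.124. A fit of the 6 libraries alone gave 135 genes higher and 174 lower. With the replicate number as a block in that fit, 204 were higher and 272 lower. With 936421 to 1503182 reads outside the 3 dominant rows and 3 libraries per group, simulated data gave back 16.4% of 1.5-fold changes; depth alone was not varied.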

Other observations

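Some called genes outside the lists were picked after their values were seen, so they stand for no group. Plec, which encodes plectin, a linker between intermediate filaments and actin, had 37.8, 46.7 and 66.1 normalized counts at day 6 against 9.96, 13.6 and 15.7 at day 2 (log2 change 1.85 ± 0.36; adjusted p = 0.00703). Parva, the focal adhesion protein alpha-parvin, had 11.5, 11.7 and 12.3 at day 6 against 1.60, 1.14 and 0 at day 2 (log2 change 2.86), and it passed the filter only through day 6, so that it had to differ. Vasp, Tes, Capn2, Dst and Rock2, which act on actin filaments or adhesions, had log2 changes of 0.70, 0.92, 1.30, 0.71 and 0.69, all called.

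Other genes picked in the same way were lower. Tex19.1, which restrains retrotransposons in germ cells, had 24.0, 20.3 and 28.4 at day 6 against 59.4, 61.3 and 52.7 at day 2 (log2 change -1.23; adjusted p = 0.00231). Ooep, an oocyte protein gene, fell by 0.92, Morc1, a germ cell chromatin gene, by 0.87, and Eras, the Ras of embryonic stem cells, by 1.56 on the log2 scale. Lower too were Slc25a20, the mitochondrial carnitine carrier (-1.69), Acaa2 of fatty acid oxidation (-1.29), Bckdha of branched amino acid breakdown (-1.38) and Idh2 (-0.88) and Cs (-0.58) of the citric acid cycle. The mitochondrial carrier Slc25a24 was higher (2.95), and 0 of 38 tested oxidative phosphorylation genes passed in limma (3 at an unadjusted p under 0.05), so these picks say nothing of mitochondrial genes as a group. Slc25a24 apart, the alternatives were not run for the genes picked here.

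Of 277 tested rows on the X chromosome, 17 (6.14%) were higher and 11 (3.97%) lower, against 1.99% and 2.70% of autosomal rows, while the medians were 0.00 and -0.02. The higher ones included Tmsb4x, Clcn5, Morc4 and Rlim, a ubiquitin ligase known for its part in X inactivation (log2 change 0.46; adjusted p = 0.0362), and the lower ones Usp9x, a deubiquitinase (-0.49). Row by row, the X chromosome thus gave more calls in both directions and no shift of its middle.

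By length of the gene in the annotation, the longest quartile of rows held 66 of the higher and 61 of the lower calls, with a median log2 change of 0.03, and the shortest quartile 34 and 57, with a median of -0.02. Against the day 2 mean, the median of the longest quartile was 0.04, -0.04 and 0.12 in day 6 replicates 1 to 3 and that of the shortest 0.00, 0.08 and -0.14, so replicates 2 and 3 lay on opposite sides. The part of this in the results was not tested.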
